A study of Mus musculus with 8 samples.

Results

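The mRNA levels of 10 amino acid transporter genes, *Slc38a5*, *Slc38a2*, *Slc38a3*, *Slc7a1*, *Slc7a2*, *Slc7a5*, *Slc7a8*, *Slc3a2*, *Slc1a5*, and *Slc43a1*, were followed in the pancreas of WT and *Pfkfb3* cKO mice after saline or after alcoholic severe acute pancreatitis (FAEE-SAP). They were taken by name from the 48709 genes measured in each library, and all 10 were present. They are called the members below. *Slc38a5* was picked because it fell in WT mice with FAEE-SAP, so its levels in WT are given below as a description with no test. The other 9 genes were listed for what they transport, with earlier results of these data known, so counts over them are not those of an independent list. Amino acid transporters are membrane proteins that move amino acids into and out of cells, some by using the sodium gradient and others by exchanging one amino acid for another. Pancreatic acinar cells build digestive enzymes at a very high rate and take up large amounts of amino acids from the blood to do so. The *Slc38* members carry small neutral amino acids such as glutamine, the *Slc7a1* and *Slc7a2* products carry arginine and lysine, and the products of *Slc7a5* and *Slc7a8* exchange large neutral amino acids when paired with the heavy chain encoded by *Slc3a2*.

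RNA-Seq was performed on whole pancreas from 8-week-old male mice 24 hours after injection of normal saline or of POA and ethanol, the combination that gives FAEE-SAP. The cKO mice were *Pfkfb3* fl/fl and carried *Pdx1*-Cre, which acts in the cells of the pancreatic lineage (acinar, duct, and islet cells) and not in infiltrating cells. The WT mice were bought from a breeder. No group had the floxed allele without Cre or Cre alone, so the effect of losing *Pfkfb3* cannot be told apart from that of Cre or of a separate colony. There were 4 groups, WT saline, WT FAEE-SAP, cKO saline, and cKO FAEE-SAP, with 2 biological replicates each, and the labels name no mice that were processed together.

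Expression was deposited as RPKM, in which the reads of a gene are divided by its exonic length and by the mapped reads of the library. Library totals worked out from the smallest values were 22.9 to 37.7 M reads, and for an exonic length of 2 kb a single read is worth 0.0133 to 0.0218 RPKM. RPKM is a share of the library, and digestive enzyme mRNA holds most of that share in the pancreas. With values as deposited, the median log2 change of all genes tested with FAEE-SAP was 1.24 in WT and 0.57 in cKO. Each library was therefore divided by the median ratio to the geometric mean over genes, and levels below are scaled RPKM with all 8 libraries scaled together unless stated otherwise. *Pfkfb3* itself ranged from 0.867 to 2.10 scaled RPKM in cKO saline against 1.65 to 1.70 in WT saline, and from 1.67 to 2.83 in cKO FAEE-SAP against 1.87 to 3.34 in WT FAEE-SAP. The genotypes overlapped under both treatments, and gene-level values cannot show a deletion of the floxed exons, so genotype refers to the labels. Summed mRNA of 13 acinar cell markers was 255298 to 303584 scaled RPKM in WT saline and 84001 to 90999 in WT FAEE-SAP, and 351086 to 352681 in cKO saline and 198551 to 227925 in cKO FAEE-SAP. As deposited the acinar sum was 221259 to 225615 and 168374 to 169212 in WT, and 222171 to 233093 and 215941 to 221629 in cKO, so its size of change depends on the scaling. Summed mRNA of 7 neutrophil markers was 1.31 to 2.19 in WT saline and 56.3 to 60.0 in WT FAEE-SAP, and 1.29 to 3.62 in cKO saline and 12.6 to 19.0 in cKO FAEE-SAP. Most of this sum was *S100a8* (18.7 and 16.4 in WT FAEE-SAP) and *S100a9* (33.5 and 30.4). With FAEE-SAP, *Csf3r* overlapped between the genotypes (0.886 and 0.851 in WT, 1.02 and 0.562 in cKO), and the other neutrophil markers lay higher in WT. In bulk tissue, fewer cells of a type and less RNA per cell cannot be told apart.

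*Slc38a5* encodes SNAT5, a system N transporter that takes up glutamine, asparagine, histidine, serine, and glycine with sodium in exchange for protons. In pancreatic islets it is best known from alpha cells that respond to high amino acid levels. The gene lies on chromosome X of GRCm38 from 8271133 to 8280179 on the plus strand, with 2241 bases of exon. In WT, scaled RPKM was 20.1 and 13.2 with saline and 0.718 and 0.945 with FAEE-SAP. In cKO, it was 20.4 and 17.1 with saline and 5.86 and 6.60 with FAEE-SAP. Both saline groups overlapped, cKO FAEE-SAP lay below them, and WT FAEE-SAP lay lowest, with no overlap between any FAEE-SAP group and another group. The group means were 16.7 ± 4.86 in WT saline, 0.832 ± 0.161 in WT FAEE-SAP, 18.7 ± 2.32 in cKO saline, and 6.23 ± 0.528 in cKO FAEE-SAP (SD, n = 2).

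The WT FAEE-SAP levels of *Slc38a5* rested on about 74 and 129 reads and the cKO FAEE-SAP levels on about 394 and 445, so counting error is small beside these gaps. The deposited RPKM, before scaling, was 14.7 and 11.7 in WT saline, 1.44 and 1.76 in WT FAEE-SAP, 12.8 and 11.3 in cKO saline, and 6.37 and 6.42 in cKO FAEE-SAP. The order of the groups with FAEE-SAP was therefore the same with and without scaling. On the scale of log2(scaled RPKM + 0.1), the change with FAEE-SAP in WT was -4.23, or 18.8-fold lower. The log2 change was -2.96 as deposited and -3.43 with a pseudocount of 1 in place of 0.1, so its size depends on both choices. The acinar marker sum was lower in the same libraries, as given above, and its part in the fall of *Slc38a5* was not tested. Summed mRNA of 7 islet markers was 279 to 339 scaled RPKM in WT saline, 183 to 249 in WT FAEE-SAP, 303 to 366 in cKO saline, and 412 to 452 in cKO FAEE-SAP. The direction of the islet sum in WT turned with the scaling, as the deposited sums were 246.5 to 247.1 with saline and 367 to 463 with FAEE-SAP.

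**Figure D1:**
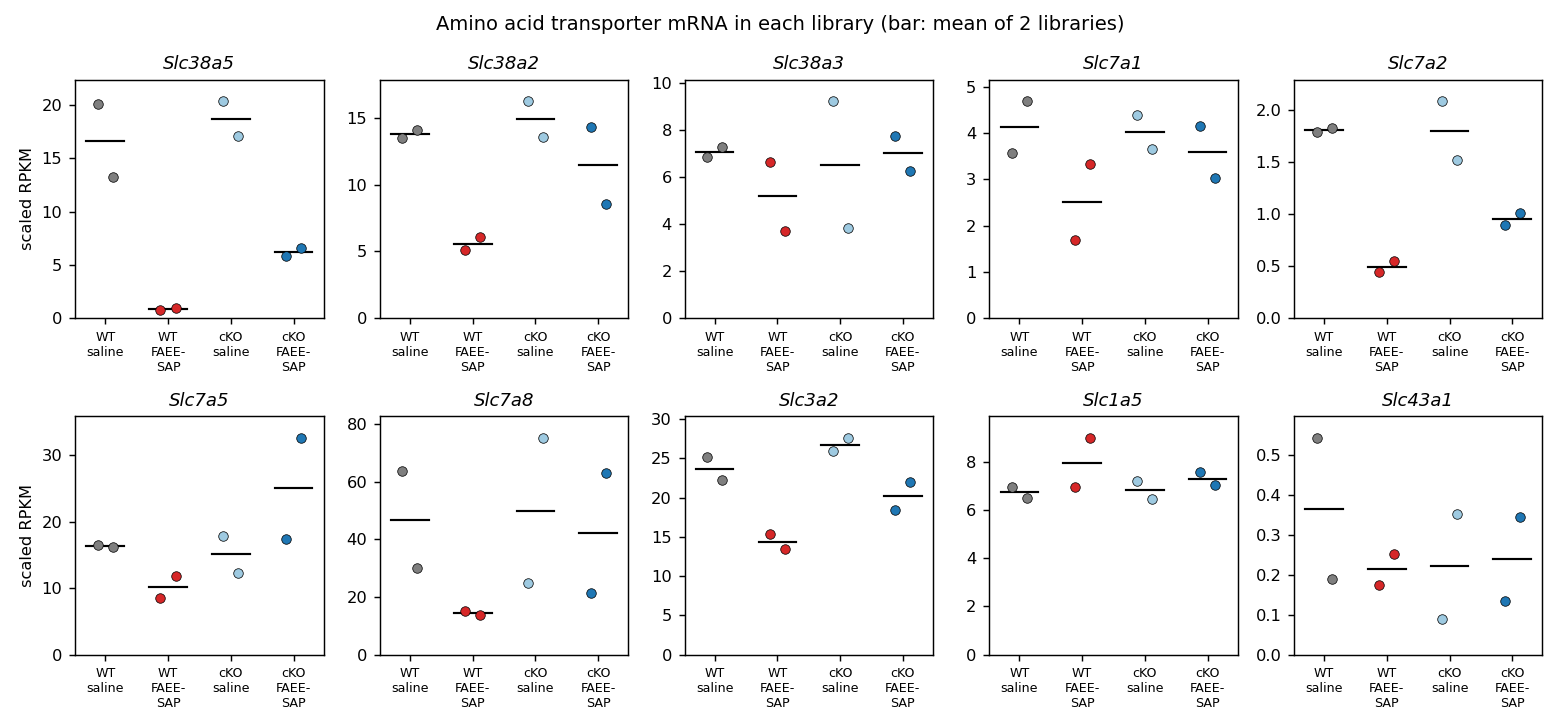
Scaled RPKM (vertical axis, from 0, a separate scale for each gene) of the 10 transporter genes in the 4 groups. Points are single libraries and bars are the means of 2 libraries. *Slc38a5* is at 0.718 and 0.945 in WT FAEE-SAP and at 5.86 and 6.60 in cKO FAEE-SAP, *Slc1a5* lies between 6.45 and 8.97 in all 8 libraries, and the 2 libraries of a group lie far apart for *Slc7a8*.

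Promoter sequence is shown for *Slc38a5* and for 2 of the genes that fell in WT, *Slc38a2* and *Slc7a8*, because these genes moved in the same direction. RefSeq windows on GRCm38.p6, from 250 bases before to 50 bases after a transcript start, were given for 6 of the 10 genes as 7 windows. The stretches below are 120 bases each, 5′ to 3′ on the gene's strand, lie upstream of the RefSeq start, and fall outside annotated exons. For *Slc38a5* the stretch is chrX:8271261-8271380 on the plus strand, directly before the start and between the first exons of alternative transcripts. For *Slc38a2* it is chr15:96699731-96699850 and for *Slc7a8* chr14:54781947-54782066, both on the minus strand. Capitals mark the E-box, CANNTG, the motif that basic helix-loop-helix factors bind, which reads the same on both strands.
Slc38a5: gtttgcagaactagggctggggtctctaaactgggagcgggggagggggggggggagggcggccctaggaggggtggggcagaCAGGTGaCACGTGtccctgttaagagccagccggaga
Slc38a2: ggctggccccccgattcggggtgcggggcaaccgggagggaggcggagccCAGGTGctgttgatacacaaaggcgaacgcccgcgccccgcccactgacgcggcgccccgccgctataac
Slc7a8: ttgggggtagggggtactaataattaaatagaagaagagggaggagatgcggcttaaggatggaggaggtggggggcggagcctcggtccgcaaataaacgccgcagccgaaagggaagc
The *Slc38a5* stretch holds 2 E-boxes 1 base apart, CAGGTG and CACGTG, the *Slc38a2* stretch holds 1, and the *Slc7a8* stretch, which lies 180 to 61 bases before the start, holds 0, although the whole *Slc7a8* window of 300 bases holds the motif. GC content of the whole windows of 300 bases was 56.0% for *Slc38a5*, 73.0% for *Slc38a2*, and 58.0% for *Slc7a8*, against a median of 52.7% (quartiles 45.7% and 61.7%) over all 32851 windows. The E-box was marked after the sequences had been seen, and it is common. It occurred in 5 of the 7 windows of the transporter genes and in 72.3% of all windows. The C/EBP-ATF response element, searched as TGATGNAA on both strands, is the motif through which amino acid shortage acts on many genes. It occurred in 0 of the 7 windows and in 3.97% of all windows, a share so low that 0 of 7 windows tells nothing. Sequence farther upstream or more than 50 bases past the start was not searched. These matches describe the letters of the windows and say nothing of binding.

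With FAEE-SAP in WT mice, *Slc38a2*, *Slc7a2*, and *Slc7a8* fell relative to the other genes, in scaled RPKM. *Slc1a5* did not pass the test in either direction, and the remaining 4 genes tested had lower values that did not pass. Genes with a deposited RPKM of 0.5 or more in 2 or more libraries were tested with limma. A call required a Benjamini-Hochberg adjusted p-value under 0.05 over all genes tested and a change of at least 2-fold. Leaving *Slc38a5* aside, 8 of 9 members were tested, 3 were called lower, and 0 were called higher, where 3.86% of all 10894 genes tested were called lower and 3.08% higher. The FAEE-SAP libraries lay below the saline libraries without overlap for 7 of the 8, as they did for 29.5% of all genes. The median log2 change of the 8 was -0.80, against 0.02 for all genes. As deposited, 5 of the 8 changes were positive and 3 negative, and 0 were called lower. The acinar and neutrophil marker sums given above moved in the same libraries, and their part in these changes was not tested. *Slc43a1*, which encodes a carrier of branched-chain amino acids, had 0.0883 to 0.541 scaled RPKM over the 8 libraries and did not reach the level needed for a test in any comparison. The other 9 genes had a deposited RPKM over 0.5 in every library, so none of them entered a test through 1 group alone.

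*Slc38a2* encodes SNAT2, the system A transporter of small neutral amino acids, and lies on chromosome 15 from 96687392 to 96699730 on the minus strand. Its scaled RPKM was 13.5 and 14.2 in WT saline, 5.12 and 6.06 in WT FAEE-SAP, 16.3 and 13.6 in cKO saline, and 14.3 and 8.58 in cKO FAEE-SAP. The WT FAEE-SAP libraries were the lowest of the 8. The log2 change in WT was -1.36 (SE 0.18, limma adjusted p = 0.0149 with Benjamini-Hochberg adjustment), or 2.56-fold lower. Each of the 4 libraries ended this call when left out, with limma adjusted p-values of 0.0528 to 0.0833 and changes of -1.41 to -1.22. As deposited, *Slc38a2* was 9.87 and 12.5 in WT saline and 10.3 and 11.3 in WT FAEE-SAP, a change of -0.05 (limma adjusted p = 0.847). The fall is thus a fall relative to the other genes.

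*Slc7a2* encodes CAT2, a carrier of arginine, lysine, and ornithine, on chromosome 8 from 40862396 to 40922308. Its level was low in every group, with a scaled RPKM of 1.79 and 1.83 in WT saline, 0.438 and 0.550 in WT FAEE-SAP, 2.08 and 1.52 in cKO saline, and 0.890 and 1.01 in cKO FAEE-SAP. In scaled RPKM, as for *Slc38a5*, the 2 saline groups overlapped and WT FAEE-SAP lay below cKO FAEE-SAP. As deposited, the FAEE-SAP groups stayed apart for *Slc38a5* but overlapped for *Slc7a2* (0.878 and 1.02 in WT, 0.968 and 0.981 in cKO). The log2 change of *Slc7a2* in WT was -1.78 (SE 0.23, limma adjusted p = 0.0146), or 3.42-fold lower. It was called without WT saline replicate 2 (limma adjusted p = 0.0450) and not without WT saline replicate 1 (0.0634), WT FAEE-SAP replicate 1 (0.0574), or WT FAEE-SAP replicate 2 (0.0813). As deposited, its change in WT was -0.57 and did not pass (limma adjusted p = 0.0870). The call also ended with no filter (-1.71, limma adjusted p = 0.0520).

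*Slc7a1* encodes CAT1, the more widely expressed carrier of the same cationic amino acids. Scaled RPKM of *Slc7a1* was 3.58 and 4.69 in WT saline, 1.70 and 3.33 in WT FAEE-SAP, 4.396 and 3.66 in cKO saline, and 4.14 and 3.02 in cKO FAEE-SAP. Its change in WT, -0.82, did not pass the test (SE 0.34, limma adjusted p = 0.195) and ranged from -1.22 to -0.33 with 1 library left out.

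*Slc7a8* encodes LAT2, a light chain that exchanges large and small neutral amino acids, on chromosome 14 from 54722209 to 54781946. It had the highest mean of the 10 genes in 3 of the 4 groups and, in the same 3, a wide spread between replicates. Its scaled RPKM was 63.6 and 30.0 in WT saline, 15.1 and 13.7 in WT FAEE-SAP, 24.8 and 75.1 in cKO saline, and 21.3 and 63.1 in cKO FAEE-SAP. The WT FAEE-SAP libraries were the lowest of the 8, while the 2 libraries of every other group differed by more than 2-fold. The log2 change in WT was -1.66 (SE 0.35, limma adjusted p = 0.0471), or 3.15-fold lower, close to the threshold. It was called without WT saline replicate 2 (-2.20, limma adjusted p = 0.00861) and not without WT saline replicate 1 (-1.13, 0.0848), WT FAEE-SAP replicate 1 (-1.70, 0.124), or WT FAEE-SAP replicate 2 (-1.52, 0.226). The call also ended, by limma adjusted p, with quantile normalization (0.0619), no filter (0.108), a pseudocount of 0.01 (0.0530), no trend (0.0704), and all 8 libraries in 1 model (0.145), and as deposited the change was -0.34 (0.306).

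*Slc7a5* encodes LAT1, the light chain that carries leucine and other large neutral amino acids into growing cells. Its scaled RPKM was 16.5 and 16.2 in WT saline, 8.51 and 11.9 in WT FAEE-SAP, 17.9 and 12.4 in cKO saline, and 17.5 and 32.6 in cKO FAEE-SAP. Of the cKO FAEE-SAP libraries, 1 lay above all others. The change in WT was -0.75 (SE 0.21, limma adjusted p = 0.0845) and did not pass, and as deposited it turned to 0.56 (limma adjusted p = 0.0553). *Slc3a2*, which encodes the heavy chain (4F2hc, CD98) that brings both light chains to the cell surface, had a scaled RPKM of 25.2 and 22.2 in WT saline, 15.4 and 13.4 in WT FAEE-SAP, 25.96 and 27.6 in cKO saline, and 18.4 and 22.0 in cKO FAEE-SAP. In scaled RPKM its FAEE-SAP libraries lay below the saline libraries of the same genotype in both genotypes, and as deposited they lay above them in both (30.8 and 24.96 against 18.4 and 19.6 in WT). The change of *Slc3a2* in WT was -0.78 (SE 0.18, limma adjusted p = 0.0574), and as deposited it turned to 0.54 (limma adjusted p = 0.0449).

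*Slc38a3*, which encodes SNAT3, the other system N transporter of the list, was 6.84 and 7.29 in WT saline, 6.65 and 3.72 in WT FAEE-SAP, 9.23 and 3.83 in cKO saline, and 7.77 and 6.26 in cKO FAEE-SAP, in scaled RPKM. Its change in WT was -0.56 (SE 0.31, limma adjusted p = 0.308), with a 95% interval of -1.32 to 0.21. It ranged from -0.94 to -0.08 with 1 library left out. *Slc1a5* encodes ASCT2, a sodium-dependent exchanger of glutamine, alanine, serine, and cysteine. It was 6.94 and 6.51 in WT saline, 6.95 and 8.97 in WT FAEE-SAP, 7.18 and 6.45 in cKO saline, and 7.55 and 7.02 in cKO FAEE-SAP. Relative to the other genes its level varied least of the 10 across the libraries, and the change in WT was 0.17 (95% interval -0.31 to 0.66, limma adjusted p = 0.625).

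**Figure D2:**
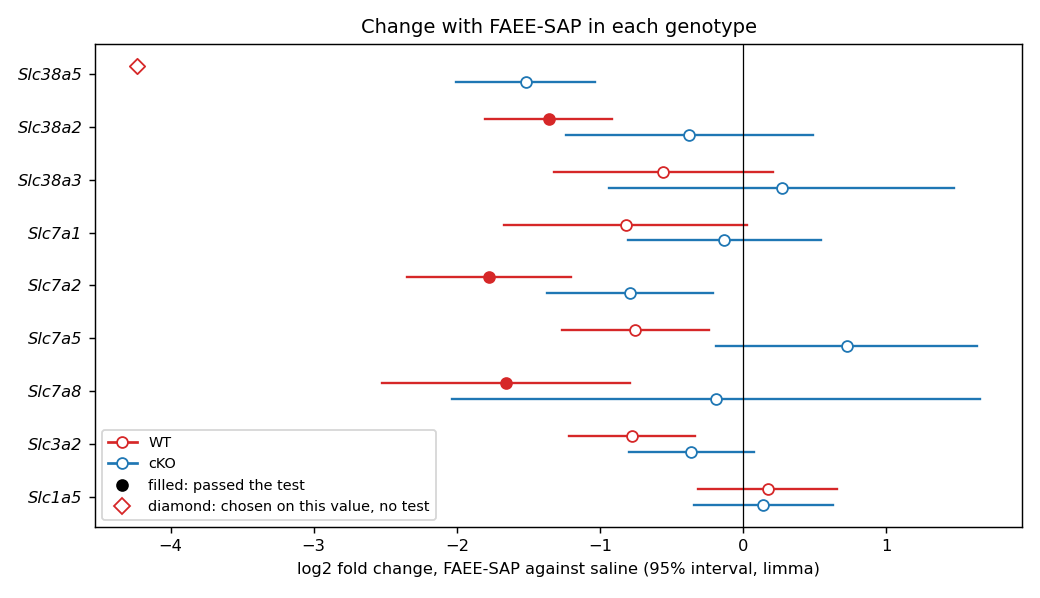
Log2 change with FAEE-SAP against saline (horizontal axis) of the 9 genes tested, in WT (red) and cKO (blue). Circles are limma estimates with 95% intervals, filled where the gene passed the test, and the diamond is *Slc38a5* in WT at -4.23, shown without an interval because the gene was chosen on this value. The filled circles are *Slc38a2* at -1.36, *Slc7a2* at -1.78, and *Slc7a8* at -1.66.

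In cKO mice, no member passed the test with FAEE-SAP. Of 9 members tested, 0 were called and 2 (*Slc38a5* and *Slc7a2*) had an unadjusted limma p-value under 0.05, where 0.0531% of all 9423 genes were called (5 higher and 0 lower) and 888 had such a p-value. *Slc38a5* had the largest change of the members, -1.52 (SE 0.19, 95% interval -2.005 to -1.035, limma adjusted p = 0.169), or 2.87-fold lower. With replicate number as a block its limma adjusted p was 0.0453, and under the other alternatives it was 0.0679 to 0.554. *Slc7a2* changed by -0.79 (SE 0.22, limma adjusted p = 0.440) and *Slc7a5* by 0.73 (SE 0.35, limma adjusted p = 0.572). FAEE-SAP and saline libraries did not overlap for *Slc38a5*, *Slc7a2*, and *Slc3a2*, which were lower, and for *Slc7a5*, which was higher. For *Slc7a5* this held with the 4 cKO libraries scaled on their own, while with all 8 scaled together the lower FAEE-SAP library (17.5) lay just under the higher saline library (17.9). Over all genes, 21.4% were lower and 21.8% were higher without overlap. The other values were -0.37 for *Slc38a2*, 0.27 for *Slc38a3*, -0.13 for *Slc7a1*, -0.19 for *Slc7a8*, -0.36 for *Slc3a2*, and 0.14 for *Slc1a5*. The median of the 9 was -0.19, against -0.01 for all genes.

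With saline, the members did not differ detectably between the genotypes. Of 8 tested, leaving *Slc38a5* aside, 0 were called by limma and 0 had an unadjusted p-value under 0.05, where 0% of all 8715 genes were called and 187 had such a p-value. The log2 differences of cKO from WT lay between -0.27 for *Slc38a3* and 0.14 for *Slc3a2*, with limma adjusted p-values of 0.999 for all 8. *Slc38a5* differed by 0.16 (-0.12 as deposited), and its libraries overlapped.

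With FAEE-SAP, 7 of the 8 members tested had higher scaled values in cKO than in WT, and none passed the test. As deposited, 4 were higher and 4 lower, with *Slc38a2* at 0.09, *Slc7a2* at 0.04, *Slc7a5* at 0.34, and *Slc7a8* at 0.44 on the log2 scale. Limma called 0 of the 8, and 5 had an unadjusted p-value under 0.05, where 1.27% of all 11008 genes were called, 0.863% of all genes were called higher, and 2148 had such a p-value. The cKO libraries lay above the WT libraries without overlap for the 5 genes *Slc38a2*, *Slc7a2*, *Slc7a5*, *Slc7a8*, and *Slc3a2*, as they did for 26.1% of all genes. The log2 difference was 1.40 for *Slc7a8* (95% interval 0.22 to 2.58, limma adjusted p = 0.203), 1.29 for *Slc7a5* (0.47 to 2.12, 0.137), 1.04 for *Slc38a2* (0.30 to 1.77, 0.163), and 0.90 for *Slc7a2* (0.26 to 1.54, 0.163). It was 0.61 for *Slc7a1*, 0.54 for *Slc3a2*, 0.53 for *Slc38a3*, and -0.07 for *Slc1a5*. *Slc38a5* differed by 2.86, or 7.26-fold, which is given as a description, and by 1.94 as deposited and 2.21 with a pseudocount of 1. The median of the 8 was 0.75, against -0.01 for all genes. Without cKO FAEE-SAP replicate 1, *Slc7a8* was called higher in cKO (2.18, limma adjusted p = 0.0298), while without cKO FAEE-SAP replicate 2 it was 0.63 (limma adjusted p = 0.290). *Slc7a5* was called when the model included replicate number as a block (limma adjusted p = 0.0290). This comparison uses the same WT FAEE-SAP libraries as that of WT mice above, so the 2 sets of values are not independent.

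The difference between the genotypes in the change with FAEE-SAP was tested as an interaction over all 8 libraries. None of the 8 members tested was called by limma and 3 had an unadjusted p-value under 0.05, where 0.0719% of all 11133 genes were called and 1398 had such a p-value. The interaction was 1.44 for *Slc7a5* (limma adjusted p = 0.284), 1.43 for *Slc7a8* (0.558), 0.94 for *Slc38a2* (0.375), and 0.91 for *Slc7a2* (0.314), positive values meaning a smaller fall or a larger rise in cKO. As deposited these were 0.78, 0.77, 0.29, and 0.35. With 1 library left out they ranged from 1.02 to 1.87 for *Slc7a5*, 0.64 to 2.21 for *Slc7a8*, 0.56 to 1.34 for *Slc38a2*, and 0.68 to 1.13 for *Slc7a2*. For *Slc38a5* it was 2.64, given as a description, with 2.06 as deposited and 1.84 with a pseudocount of 1. A change past the threshold in WT and not in cKO is therefore not shown to differ between the genotypes for *Slc38a2*, *Slc7a2*, or *Slc7a8*.

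The direction of several changes depended on the scaling. In WT, *Slc38a5*, *Slc38a2*, *Slc7a2*, and *Slc7a8* were negative with median of ratios, a trimmed mean of log ratios, quantile normalization, and values as deposited, and *Slc1a5* was positive with all 4. *Slc38a3*, *Slc7a1*, *Slc7a5*, and *Slc3a2* were negative with the first 3 and turned positive as deposited, at 0.75, 0.47, 0.56, and 0.54. As deposited, *Slc1a5* was called higher in WT with FAEE-SAP (1.48, limma adjusted p = 0.00209), from 5.40 ± 0.490 to 15.3 ± 1.95 RPKM (SD, n = 2), and none of the 8 members was called lower. Of all genes, 7184 were then called higher and 86 lower, where the scaled values gave 335 and 420. In cKO as deposited, *Slc38a5* and *Slc7a2* were the genes that remained negative, at -0.90 and -0.22. For cKO against WT with FAEE-SAP the median of all genes was -0.91 as deposited, and *Slc1a5* was called lower in cKO (-1.02, limma adjusted p = 0.0146). The all-gene calls of that comparison were 73 higher and 4354 lower as deposited and 95 and 45 scaled.

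**Figure D3:**
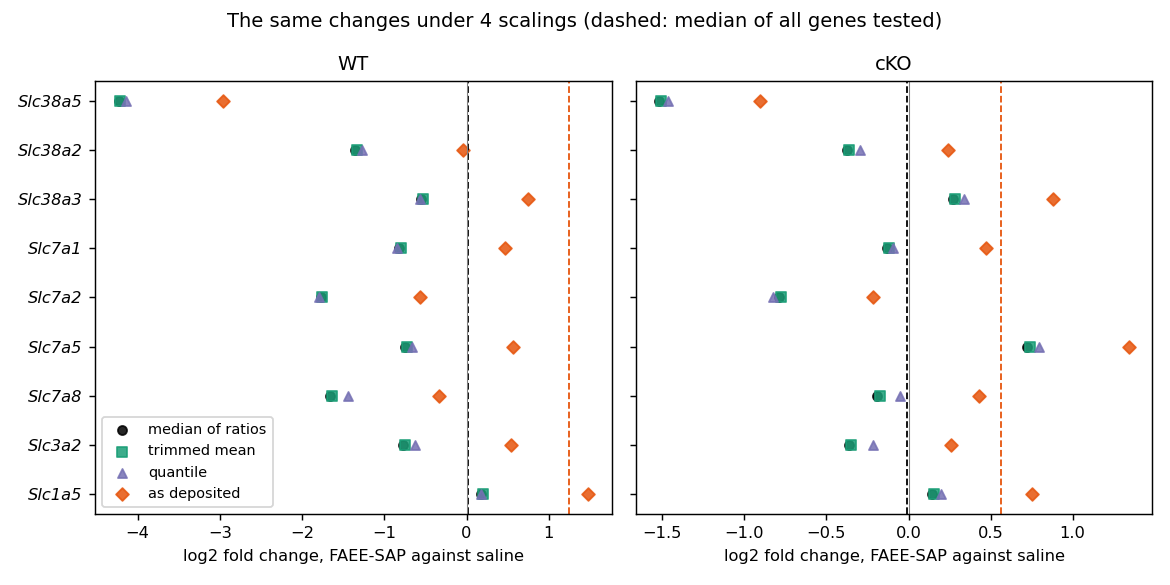
Log2 change with FAEE-SAP (horizontal axis) of the 9 genes in WT and cKO under 4 scalings, each marker being 1 scaling. Dashed lines are the medians of all genes tested with median of ratios (black) and as deposited (orange, 1.24 in WT and 0.57 in cKO). The orange diamonds lie to the right of the other markers by about the distance between the dashed lines, and *Slc38a5* lies left of 0 under every scaling.

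Ratios between 2 transporters within a library do not change when a library is divided by 1 factor, as in every scaling used here except quantile normalization. The ratio of *Slc38a5* to *Slc1a5*, the member that varied least, was 2.90 and 2.03 in WT saline, 0.103 and 0.105 in WT FAEE-SAP, 2.83 and 2.65 in cKO saline, and 0.776 and 0.941 in cKO FAEE-SAP. The ratio of *Slc38a5* to *Slc38a3*, the other system N gene, was 2.94 and 1.81 in WT saline, 0.108 and 0.254 in WT FAEE-SAP, 2.21 and 4.46 in cKO saline, and 0.754 and 1.06 in cKO FAEE-SAP. *Slc38a5* mRNA thus exceeded that of both genes in every saline library and was below both in every WT FAEE-SAP library. In cKO FAEE-SAP it was below *Slc1a5* in both libraries and on either side of *Slc38a3*. These ratios use the values on which *Slc38a5* was chosen and are a description.

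Among the other pairs, the ratio of *Slc7a2* to *Slc7a1* was 0.50 and 0.390 in WT saline, 0.258 and 0.165 in WT FAEE-SAP, 0.473 and 0.414 in cKO saline, and 0.215 and 0.334 in cKO FAEE-SAP. The FAEE-SAP libraries of both genotypes lay below all saline libraries. The ratio of the light chain *Slc7a5* to its heavy chain *Slc3a2* was 0.951 and 1.48 in cKO FAEE-SAP and 0.448 to 0.888 in the other 6 libraries. That of *Slc7a8* to *Slc3a2* was 2.52 and 1.35 in WT saline, 0.981 and 1.02 in WT FAEE-SAP, 0.957 and 2.72 in cKO saline, and 1.16 and 2.86 in cKO FAEE-SAP. WT FAEE-SAP lay below WT saline and below cKO FAEE-SAP without overlap, and the cKO groups overlapped.

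**Figure D4:**
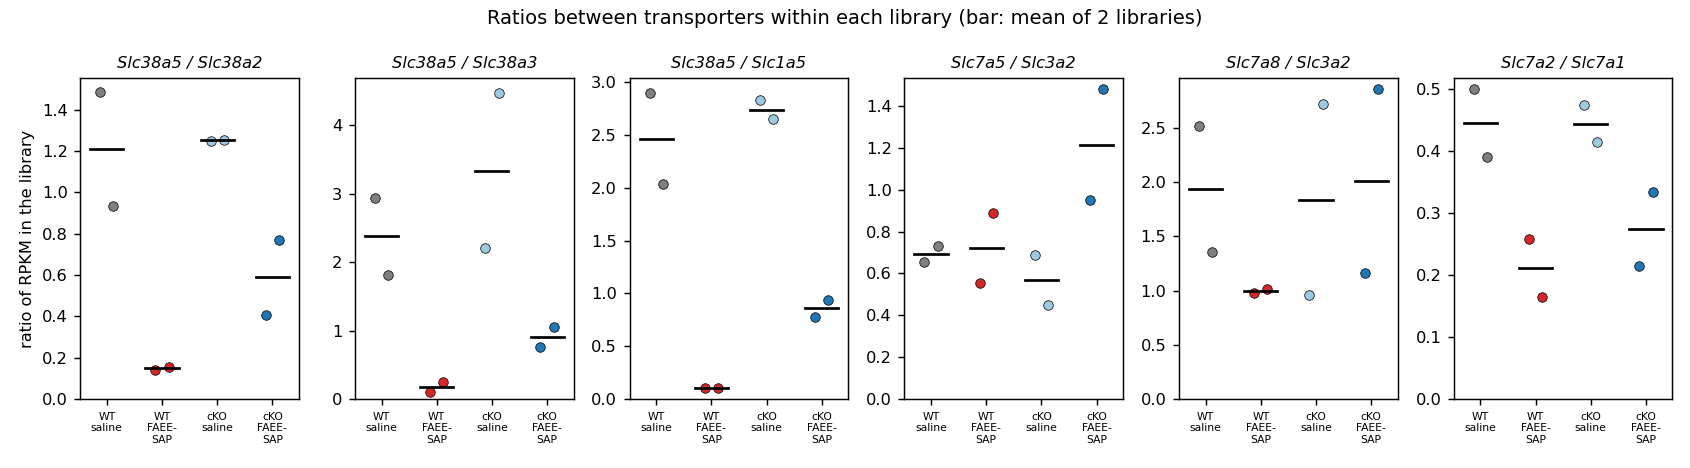
Ratio of the RPKM of 2 transporter genes within a library (vertical axis, from 0) for 6 pairs, with points for libraries and bars for means of 2. The ratio of *Slc38a5* to *Slc1a5* is lowest in WT FAEE-SAP (0.103 and 0.105), and the ratio of *Slc7a5* to *Slc3a2* is highest in cKO FAEE-SAP (0.951 and 1.48).

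RPKM is per exonic length, so the genes can be ordered by level. In WT saline the order of mean scaled RPKM was *Slc7a8* (46.8), *Slc3a2* (23.7), *Slc38a5* (16.7), *Slc7a5* (16.3), *Slc38a2* (13.9), *Slc38a3* (7.07), *Slc1a5* (6.72), *Slc7a1* (4.13), *Slc7a2* (1.81), and *Slc43a1* (0.365). Neighbors whose libraries overlapped were *Slc38a5* with *Slc7a5* and *Slc38a3* with *Slc1a5*. *Slc38a5* also ranked 3 of the 10 in cKO saline, where it overlapped *Slc7a5*. In cKO FAEE-SAP it ranked 7, overlapping *Slc38a3* above it, and in WT FAEE-SAP it ranked 8, with no overlap with *Slc7a1* above or *Slc7a2* below. The leading genes in WT FAEE-SAP were *Slc3a2* (14.4) and *Slc7a8* (14.4), whose libraries overlapped.

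The genes with the pattern nearest to *Slc38a5* over the 8 libraries were *Clps*, *Gal*, *Tmed11*, *Serpini2*, and *Ggh*. Nearness was the root mean square difference of log2(scaled RPKM + 0.1), centered on each gene's mean, over 7367 genes with a mean of at least 1 scaled RPKM. It was 0.31 for *Clps*, which encodes the pancreatic colipase that acinar cells secrete, 0.33 for *Gal*, which encodes the neuropeptide galanin, 0.36 for *Tmed11*, a member of a family of secretory pathway cargo receptors, 0.37 for *Serpini2*, a serine protease inhibitor of the exocrine pancreas, and 0.49 for *Ggh*, which encodes gamma-glutamyl hydrolase. *Gal*, whose level was nearest to that of *Slc38a5* among them, had a scaled RPKM of 65.6 and 57.6 in WT saline, 4.98 and 5.93 in WT FAEE-SAP, 71.6 and 75.6 in cKO saline, and 36.3 and 32.2 in cKO FAEE-SAP. *Clps* was 20743 and 19105 in WT saline, 1502 and 1367 in WT FAEE-SAP, 21298 and 23202 in cKO saline, and 10666 and 11477 in cKO FAEE-SAP. All 5 were lowest in WT FAEE-SAP and lower in cKO FAEE-SAP than in cKO saline. This shared order follows from choosing them by nearness to *Slc38a5* and is a description. No other member of the list was among them.

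**Figure D5:**
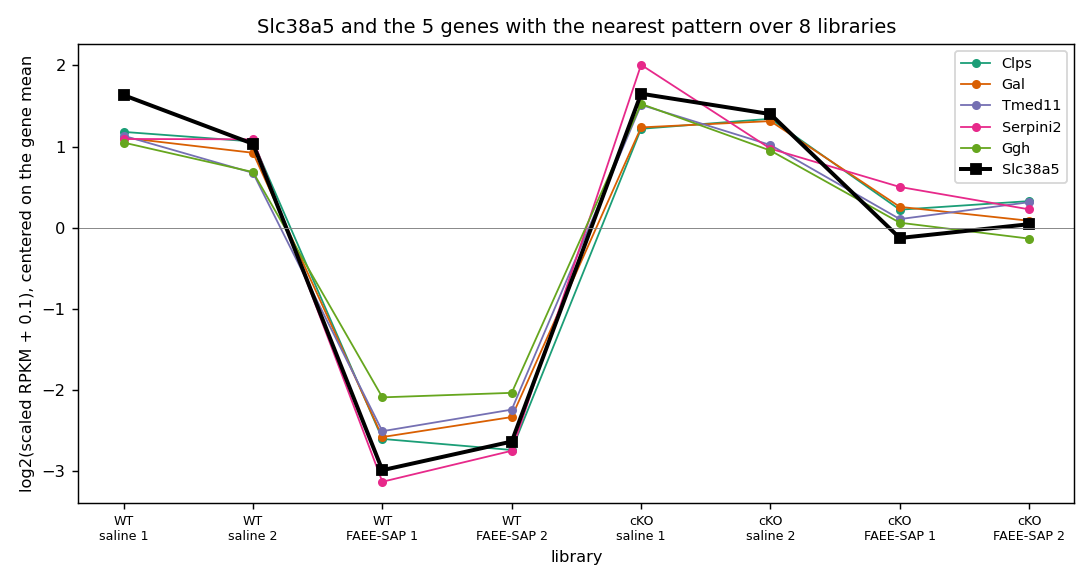
Log2(scaled RPKM + 0.1), centered on each gene's mean (vertical axis), of *Slc38a5* (black squares) and the 5 genes with the nearest pattern in the 8 libraries (horizontal axis). Lines join the values of a gene for reading only. All 6 genes are lowest in WT FAEE-SAP and nearer to their own mean in cKO FAEE-SAP than in the other groups.

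Of 43 other amino acid transporter genes, 13 to 18 were expressed at a level that could be tested, and 0 were called in any of the 5 comparisons, with 0 to 4 at an unadjusted limma p-value under 0.05. In WT with FAEE-SAP, 3 of 16 had such a p-value, as had 3013 of all 10894 genes, of which 3.86% were called lower and 3.08% higher. The shares called over all genes in the other comparisons are those given above. The most abundant were *Slc38a10* (mean of 13.1 scaled RPKM over the 8 libraries), *Slc6a9*, which encodes a glycine transporter (10.6), and *Slc7a6*, which encodes another light chain that pairs with the *Slc3a2* product (2.93). Scaled RPKM of *Slc38a10* ranged from 10.1 to 15.4 and that of *Slc6a9* from 8.94 to 12.5. *Slc38a1*, which encodes the system A transporter SNAT1, had at most 1.09, and *Slc7a11*, the cystine exchanger, at most 0.804. With FAEE-SAP in WT, 16 were tested, 9 had negative and 7 positive changes, and their median was -0.21. It was -0.04 in cKO.

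Among 18 enzymes of glutamine, arginine, and asparagine use tested in WT with FAEE-SAP, 3 were called lower and 0 higher, where 3.86% and 3.08% of all genes were. Their median was -0.80, against 0.02 for all genes. Asparagine synthetase, *Asns*, was 38.2 and 42.5 in WT saline and 16.4 and 21.0 in WT FAEE-SAP, a change of -1.18 (limma adjusted p = 0.0240). *Gpt2*, the mitochondrial alanine aminotransferase, changed by -1.68 (limma adjusted p = 0.0361), and *Ass1*, argininosuccinate synthetase, by -1.08 (limma adjusted p = 0.0457). As deposited, the WT FAEE-SAP libraries stayed below the saline libraries for *Gpt2* (2.97 and 3.11 against 4.91 and 3.28), overlapped them for *Asns* (32.8 and 39.0 against 27.8 and 37.6), and lay above them for *Ass1* (6.41 and 7.03 against 6.07 and 5.41). Of 21 aminoacyl-tRNA synthetases tested, 1 was called, *Wars*, the tryptophanyl-tRNA synthetase that interferon also induces. It was higher in WT with FAEE-SAP (1.18, limma adjusted p = 0.0455). Of all genes, 3.08% were called higher and 3.86% lower, so 1 call of 21 says nothing of the list as a set. Of the 21, 17 had negative values, and the median of the list was -0.41.

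Of 14 genes of the response to amino acid shortage tested in WT, 1 was called. Of all genes, 3.08% were called higher and 3.86% lower, so 1 call of 14 says nothing of the list as a set. The gene called was *Cebpb*, which encodes a transcription factor that inflammation also induces. It rose from 2.89 and 3.63 in WT saline to 7.23 and 10.03 scaled RPKM in WT FAEE-SAP (1.32, limma adjusted p = 0.0342). The median of the 14 was 0.40. Of 26 genes by which mTORC1 senses amino acids, 0 were called, 6 had an unadjusted limma p-value under 0.05, as had 3013 of all 10894 genes, and the median was 0.02, as for all genes. In the other 4 comparisons 0 genes of these 4 lists were called by limma, and 0 to 10 genes of a list had an unadjusted p-value under 0.05. The 10 were among 18 enzymes for cKO against WT with FAEE-SAP, where 2148 of all 11008 genes had such a p-value. In that comparison the cKO libraries lay above the WT libraries without overlap for 13 of the 18 enzymes and for 26.1% of all genes, and the median log2 fold change of the 18 was 0.72, against -0.01 over all genes tested.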

How the data were processed

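RNA-Seq of 8 pancreas libraries, 2 per group, was used, with groups and replicate numbers from the labels. The authors deposited RPKM per gene. The labels and the paper name a directional library kit, fastp, and GRCm38.p6 with CLC Genomics Workbench, and how RPKM were computed is not given in the sources used here. Library totals were worked out from low values and GENCODE vM21 exonic lengths (46325 genes, 95.1%, matched by symbol). Of the values under 20 reads, 84.2% to 85.6% were whole within 0.1 reads, and the reads summed to 100.3% to 105.7% of the totals, so reads per gene are approximate.

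The libraries of a comparison were scaled by the median of ratios. Genes with a deposited RPKM of at least 0.5 in at least 2 libraries were tested as log2(scaled RPKM + 0.1), a scale that understates changes of low genes. The test was limma 3.58.1 (R 4.3.3), with the variance prior following a trend in intensity, and Benjamini-Hochberg adjustment over all genes tested, and only the libraries of a comparison entered its fit. An exact permutation test (two-sided) of 2 libraries against 2 cannot go below p = 0.33 and was not used. P-values reflect the spread between these libraries. The code was tested on simulated data.

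The members and the gene lists were chosen with earlier results of these data known. Named genes are the members, up to 3 called genes of each list with a mean of at least 1 scaled RPKM in the higher group, and the 5 genes nearest in pattern to *Slc38a5*. *Slc38a1* and *Slc7a11* and the 3 most abundant other transporters were named after their values were seen. *Mars1* and 3 genes of the mTORC1 list were not matched by name. Marker lists of 10 cell types were summed. Alternatives were other scalings (trimmed mean of log ratios, quantile, as deposited), filters of none or an RPKM of 2, pseudocounts of 1 and 0.01, no trend, 1 model for all 8 libraries, replicate number as a block, and each library left out. Promoter windows and their sequences are from RefSeq (GRCm38.p6). Tables and figures used pandas 2.3.3, numpy 2.4.6, and matplotlib 3.10.9 under Python 3.11.15.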

Additional observations from a re-analysis of the deposited data

Results flagged for a closer look

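*Slc7a5*, which encodes the light chain LAT1, had values of opposite sign with FAEE-SAP in the genotypes. Its log2 change was -0.75 in WT (limma adjusted p = 0.0845) and 0.73 in cKO (limma adjusted p = 0.572), neither of which passed the test. With the libraries of each genotype scaled on their own the FAEE-SAP and saline libraries did not overlap. With all 8 libraries scaled together, the cKO groups overlapped slightly (17.5 with FAEE-SAP under 17.9 with saline). The test of the difference itself, the interaction, gave 1.44 with an adjusted p of 0.284 (limma with Benjamini-Hochberg adjustment over 11133 genes) and did not pass. As deposited, the changes were 0.56 in WT and 1.34 in cKO, both positive. Scaled RPKM of *Slc7a5* in the cKO FAEE-SAP libraries was 17.5 and 32.6, and without the second of them the change in cKO was 0.38.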

How the results depend on the processing

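In WT with FAEE-SAP, 3 members were called. The count was 1 as deposited (*Slc1a5*, higher), 1 with no filter (*Slc38a2*), and 0 to 2 with 1 library left out. Over all genes, 335 higher and 420 lower calls became 132 and 127 with no filter and as few as 33 and 64 with 1 library left out (WT FAEE-SAP replicate 2). The member count was 2 with quantile normalization, a pseudocount of 0.01, no trend, and all 8 libraries in 1 model (*Slc38a2* and *Slc7a2*), and with a minimum RPKM of 2 (*Slc38a2* and *Slc7a8*), where *Slc7a2* was not tested. In cKO with FAEE-SAP the count of 0 became 1 with replicate number as a block (*Slc38a5*), under which the all-gene calls went from 5 higher and 0 lower to 40 and 12. For cKO against WT with FAEE-SAP, 0 became 1 as deposited (*Slc1a5*), 1 with the replicate block (*Slc7a5*), and 0 to 1 with 1 library left out. All-gene calls there went from 95 and 45 to 330 and 238 under the block. The replicate block left 3 calls in WT and 0 with saline and in the interaction. Same-numbered deviations from the group mean correlated across genes at -0.175 and 0.450 between treatments in WT and cKO and at -0.395 and 0.313 between genotypes with saline and FAEE-SAP. No source says that a number marks a shared litter, batch, or day, and the numbers were not taken as a pairing. With the WT saline numbers exchanged, a pairing chosen after seeing the data, 2 members were called in WT, and all-gene calls of the interaction went from 5 and 3 to 38 and 30.

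As deposited, these log2 values changed sign. In WT they were 0.75 for *Slc38a3*, 0.47 for *Slc7a1*, 0.56 for *Slc7a5*, and 0.54 for *Slc3a2*. In cKO they were 0.24 for *Slc38a2*, 0.47 for *Slc7a1*, 0.43 for *Slc7a8*, and 0.26 for *Slc3a2*. With saline they were -0.12 for *Slc38a5*, -0.20 for *Slc38a2*, and -0.13 for *Slc3a2*, and with FAEE-SAP between genotypes -0.42 for *Slc38a3*, -0.33 for *Slc7a1*, and -0.42 for *Slc3a2*. The interaction was -0.29 for *Slc3a2*. *Slc1a5* changed sign with saline with no filter (0.0015) and in the model of all 8 libraries (0.012), and in the interaction with quantile normalization (0.025) and a minimum RPKM of 2 (0.012).

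With 1 library left out, changes in cKO ranged from -0.38 to 0.19 for *Slc7a1*, -0.36 to 0.91 for *Slc38a3*, -0.97 to 0.60 for *Slc7a8*, and -0.76 to 0.093 for *Slc38a2*. Differences with saline ranged from -0.11 to 0.41 for *Slc38a5*, -0.068 to 0.20 for *Slc38a2*, -0.84 to 0.73 for *Slc7a8*, -0.30 to 0.16 for *Slc7a1*, -0.91 to 0.35 for *Slc38a3*, -0.28 to 0.16 for *Slc7a2*, -0.45 to 0.10 for *Slc7a5*, and -0.10 to 0.068 for *Slc1a5*. For *Slc1a5* they were -0.25 to 0.085 between genotypes with FAEE-SAP and -0.23 to 0.099 in the interaction. The causes were not tested. A fit without 1 library leaves an arm with 1 library, which is assumed to vary like the others. Depth limits *Slc43a1*, at about 12 to 88 reads per library.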

Other observations

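Summed marker mRNA of other cell types is given for the same libraries, in scaled RPKM. Of duct markers it was 19.7 to 25.5 in WT saline, 56.4 to 61.4 in WT FAEE-SAP, 11.8 to 31.6 in cKO saline, and 44.3 to 44.8 in cKO FAEE-SAP. Of macrophage markers it was 29.7 to 37.3, 44.6 to 50.6, 30.9 to 35.7, and 57.9 to 61.4 in the same order of groups. In WT, single genes carried much of the rise in these sums. *Spp1* was 9.06 and 17.1 in WT saline and 42.4 and 47.8 in WT FAEE-SAP, while *Sox9* was 0.982 and 0.971 and then 0.863 and 0.612. *Cd14* was 1.01 and 1.40 in WT saline and 14.4 and 13.1 in WT FAEE-SAP, while *C1qa* was 10.6 and 13.4 and then 10.4 and 9.51. In cKO FAEE-SAP, *Cd14* was 2.31 and 2.75, while *C1qa* was 19.5 and 17.4, above the 9.46 and 11.7 of cKO saline. The fibroblast sum was 51.5 to 62.8 over all libraries, the endothelial cell sum 10.5 to 16.1, and the lymphocyte sum 10.5 to 24.4. Adipocyte markers summed to 23.0 to 35.7 in WT saline and 53.7 to 73.2 in WT FAEE-SAP, without overlap, and to 23.8 to 44.4 in cKO saline and 18.1 to 56.6 in cKO FAEE-SAP. Most of this sum was *Fabp4*, and the WT groups overlapped for *Adipoq* (0.945 and 3.03 with saline, 1.21 and 2.40 with FAEE-SAP). Red blood cell markers summed to 121 to 136 in WT saline, 57.9 to 158 in WT FAEE-SAP, 67.7 to 337 in cKO saline, and 145 to 177 in cKO FAEE-SAP. No marker was listed at 0 in all 8 libraries, and *Ly6g*, the surface marker of mouse neutrophils, was listed at 0 in 5 and at no more than 0.0697 in the others. The part of these cell types in the transporter values was not tested.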
